A study of Homo sapiens with 9 samples.

Results

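The matriptase membrane protease system is described here by 7 genes of the 57905 gene identifiers in the count table. They were listed by name, with earlier results of these data known. They are the proteases ST14 (ENSG00000149418), PRSS8 (ENSG00000052344), TMPRSS2 (ENSG00000184012), TMPRSS3 (ENSG00000160183) and TMPRSS4 (ENSG00000137648), and the inhibitors SPINT1 (ENSG00000166145) and SPINT2 (ENSG00000167642). RNA sequencing was done on A549, an established human lung adenocarcinoma line, in 3 groups of 3 libraries, all grown with 5% serum. The group titled plko is the control, shAKR1B1 cells carried a short hairpin RNA against AKR1B1 (aldose reductase), and shSORD cells carried one against SORD (sorbitol dehydrogenase); these enzymes form the polyol pathway, which turns glucose into sorbitol and then fructose. The control titles name the plko vector while the treatment label calls these cells scrambled controls. The labels give 1 hairpin name per target and 1 control, so an effect of a target and an effect of its hairpin cannot be told apart. They call the replicates biological without saying whether these are separate infections or cultures. A p-value here reflects how much libraries vary within their groups, which may be technical. In the main fit 1 estimate of this spread per gene was shared by all 3 groups.

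Matriptase, the product of ST14, is a serine protease anchored in the membrane of epithelial cells with its catalytic domain outside the cell. It activates other surface and secreted proteins by cleaving them, prostasin (PRSS8) among them. The Kunitz-type inhibitors HAI-1 (SPINT1) and HAI-2 (SPINT2) sit in the same membranes and hold it in check, and the balance of protease and inhibitor is known for its part in epithelial integrity and in carcinoma.

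Totals ran from 32436524 to 43044456 counts per library, and after scaling of the library sizes 1 count was worth 0.0232 to 0.0306 CPM, the usual counts-per-library-size unit of RNA sequencing. AKR1B1 stood at 1416 ± 34.7 CPM (SD, n = 3) in plko and 153.8 ± 11.7 CPM in shAKR1B1, and SORD at 42.9 ± 1.19 CPM in plko and 8.62 ± 0.414 CPM in shSORD, so each targeted gene was low in its own group. Each was also lower in the other knockdown, AKR1B1 by -0.41 (SE 0.069) in shSORD and SORD by -0.49 (SE 0.0603) in shAKR1B1 on the log2 scale (edgeR quasi-likelihood test, Benjamini-Hochberg adjusted p = 0.000131 and 6.43e-06). Of the markers of other cells, all 5 endothelial genes together held 2 to 11 counts per library, with CLDN5 at 0 in every library. The 6 leukocyte genes summed to 9.33 to 12.2 CPM, nearly all from CD14 and ITGAM, with CD3E at 0 in every library and PTPRC at 0 to 3 counts. Within that sum CD14 was called lower in shAKR1B1 and shSORD (log2 -0.83 and -1.38), while ITGAM (0.87 and 1.31) and LYZ (3.91 and 2.34, from 1 to 2 counts in plko) were called higher, by edgeR. LYZ reached the minimum count for testing only through shAKR1B1, the group where it was highest. The 6 epithelial genes summed to 8686 to 8908 CPM in plko, 12320 to 12940 in shAKR1B1 and 10750 to 12800 in shSORD. Among them KRT7 was called lower in shAKR1B1 and shSORD (log2 -0.76 and -0.21, edgeR adjusted p = 3.07e-07 and 0.019). The shSORD call of KRT7 was lost under several alternatives, such as total-count scaling (edgeR adjusted p = 0.0936). The other 5 were called higher in both knockdowns, where 27.8% and 27.5% of all genes tested were called higher.

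SPINT2 was by far the most abundant of the 7 transcripts, and both inhibitors and the protease ST14 were higher in each knockdown than in the control. SPINT2 rose by 0.51 and 0.42 on the log2 scale in shAKR1B1 and shSORD, SPINT1 by 0.89 and 0.85, and ST14 by 0.98 and 1.22. ST14 passed the count filter only through the knockdown libraries, and its call in shAKR1B1 was lost under some alternatives. The other 4 proteases had 0 to 11 counts per library, below the minimum for testing. The 2 knockdown comparisons share the 3 control libraries and are not independent of each other.

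SPINT1 is the only gene of the 3 for which the RefSeq promoter table has an entry, and its upstream window is shown because its RNA rose in both knockdowns. The window is the 220 bases directly before the GENCODE gene start, cut from the RefSeq promoter entry. It lies on the plus strand of chr15:40843798-40844017 in GRCh38.p14, and capitals mark the GC box motif GGGCGG.
SPINT1 upstream window: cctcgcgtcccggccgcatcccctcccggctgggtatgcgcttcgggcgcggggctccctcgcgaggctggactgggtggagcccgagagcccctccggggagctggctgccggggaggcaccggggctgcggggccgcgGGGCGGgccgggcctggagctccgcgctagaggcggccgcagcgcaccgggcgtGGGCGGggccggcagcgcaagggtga
The window is 80.9% G and C and holds 2 GC boxes, whose first bases lie at -80 and -26 from the GENCODE gene start. On either strand, 38.9% of 35116 upstream windows of this length hold a GC box. These windows are the first 220 bases of each promoter entry and, unlike that of SPINT1, were not cut to end at a gene start. Their distance to a start can therefore differ, so the shares given here are not a matched background. The Grainyhead-like motif AACCNGTT (in 1.3% of windows), the E-box CAGGTG (16%) and TATAAA (8.08%) have no match in it, which says only that these letters are not in this window. TMPRSS3 was the other of the 7 genes with an entry.

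SPINT2 encodes HAI-2, a membrane inhibitor with a pair of Kunitz domains that blocks matriptase, prostasin and several related proteases. In plko it gave 272.1, 262.1 and 263.4 CPM in replicates 1 to 3. In shAKR1B1 it gave 386.2, 393 and 358.6 CPM, and in shSORD 368.6, 379.9 and 315.4 CPM. Every knockdown library lay above every control library, while the shAKR1B1 and shSORD libraries overlapped. How common such separation is among all genes was not computed, for this gene or those below. Uncalled genes can separate too, as PLAUR did in shAKR1B1 against plko. The means were 265.9 ± 5.43, 379.3 ± 18.2 and 354.6 ± 34.5 CPM (SD, n = 3). SPINT2 was 0.51 higher (log2, SE 0.0656) in shAKR1B1 than in plko, with an adjusted p of 9.67e-06 by edgeR's quasi-likelihood test with Benjamini-Hochberg adjustment over 16916 genes. In shSORD the log2 difference from plko was 0.42 (SE 0.0656, adjusted p = 7.94e-05 by the same edgeR test). In bulk RNA, more cells that express a gene and more RNA per cell cannot be told apart, here or below.

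SPINT1 encodes HAI-1, the cognate inhibitor that accompanies matriptase to the cell surface. Its counts were 20, 23 and 18 in plko, 37, 39 and 40 in shAKR1B1, and 44, 45 and 27 in shSORD. In CPM these were 0.552, 0.610 and 0.458 in plko, 1.13, 0.962 and 0.928 in shAKR1B1, and 1.14, 1.10 and 0.677 in shSORD. No knockdown library fell within the control range, although shSORD replicate 3 came close to it, and the 2 knockdowns overlapped. The means were 0.540 ± 0.0767, 1.01 ± 0.11 and 0.971 ± 0.256 CPM (SD, n = 3). The log2 difference from plko was 0.89 (SE 0.248) in shAKR1B1 and 0.85 (SE 0.248) in shSORD, with edgeR adjusted p of 0.00663 and 0.00919. SPINT1-AS1, on the opposite strand, shares 100 of the 3542 exonic bases of SPINT1; the library kit keeps strand, the counting mode is not given in the sources used here, and the antisense gene itself held 0 to 3 counts per library.

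ST14, the gene of matriptase, was read at the edge of detection. It had 6, 8 and 7 counts in plko, 12, 15 and 16 in shAKR1B1, and 15, 17 and 20 in shSORD. In CPM these were 0.166, 0.212 and 0.178 in plko, 0.368, 0.370 and 0.371 in shAKR1B1, and 0.389, 0.414 and 0.502 in shSORD. In CPM the 3 groups did not overlap, and shSORD was highest. The raw counts of shAKR1B1 and shSORD did overlap. The gap between them in CPM, from 0.371 to 0.389, was smaller than 1 count, worth 0.0259 CPM in shSORD replicate 1. The direct comparison of shAKR1B1 with shSORD gave no call (edgeR adjusted p = 0.581), so their order is not established. The means of plko, shAKR1B1 and shSORD were 0.185 ± 0.024, 0.370 ± 0.00185 and 0.435 ± 0.0593 CPM (SD, n = 3). Pooled over each group, the exact Poisson 95% intervals were 0.115 to 0.284 CPM in plko and 0.268 to 0.498 CPM in shAKR1B1, which overlap slightly and cover counting error only.
The log2 difference of ST14 from plko was 1.22 (SE 0.309) in shSORD, with an edgeR adjusted p of 0.0037. In shAKR1B1 it was 0.98 (SE 0.321) with an edgeR adjusted p of 0.0168. That call was lost with DESeq2 (adjusted p = 0.078), with no filter on low counts in edgeR (adjusted p = 0.061) and in edgeR without plko replicate 1 (adjusted p = 0.0548). ST14 passed the count filter only through the knockdown libraries, since every control library lay under the minimum of 10 counts, so a gene as low as this in plko could be tested only if it was higher elsewhere.

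The 3 tested genes were called higher in shAKR1B1, where 27.8% of all genes tested were called higher, and in shSORD, where 27.5% were. Calls in the other direction took 29.6% and 29.0% of genes, for 57.4% and 56.5% called in either. With a filter that ST14 passed through the knockdown groups, these counts are a description. Among the 4270 tested genes with a mean of 10 to 100 counts, the range of ST14 and SPINT1, the median log2 difference was 0.17 in shAKR1B1 and 0.24 in shSORD, against -0.0024 and -0.002 over all 16916 genes. In that range 27.82% and 30.47% of genes were called higher and 15.11% and 12.22% lower. An exact permutation test of 3 libraries against 3 gave p = 0.1, two-sided, for each of the 3 genes in both knockdowns, the smallest p it allows.

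**Figure D1:**
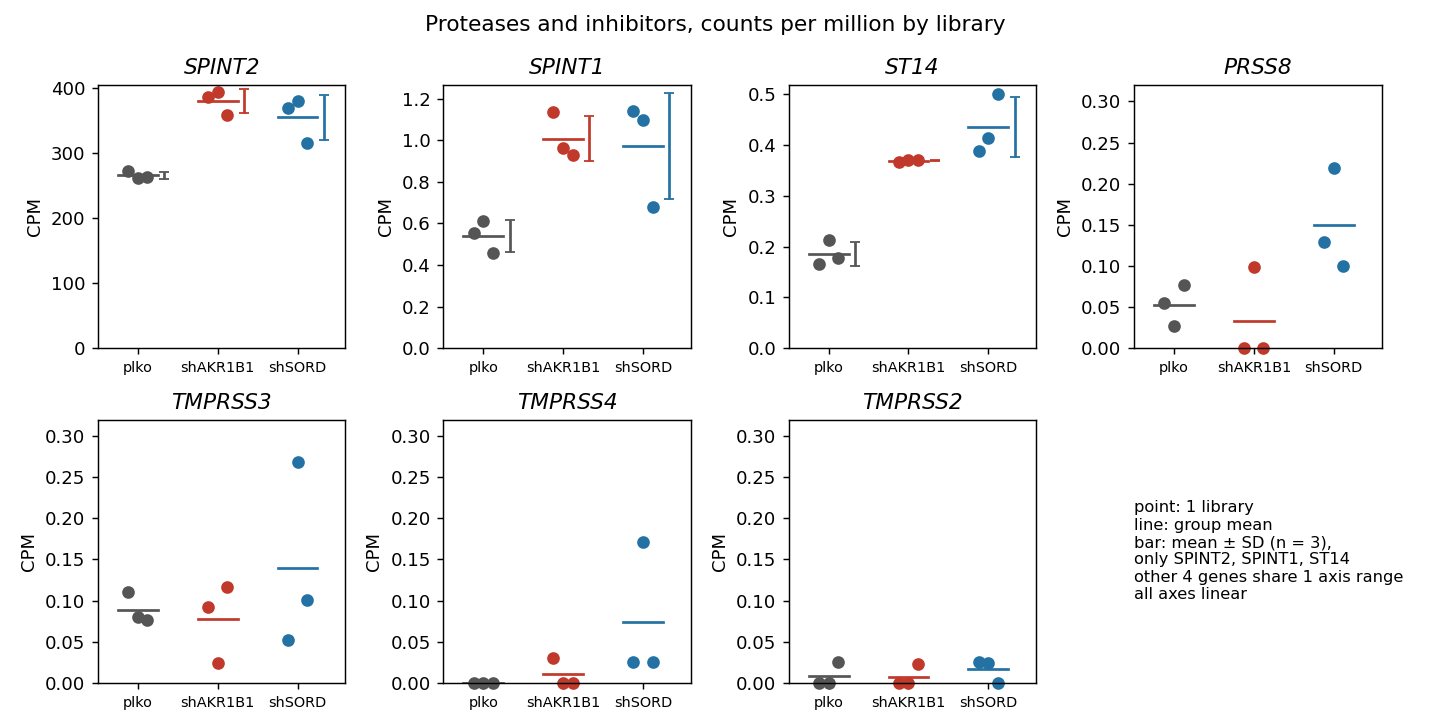
CPM of the 7 genes in each library of plko, shAKR1B1 and shSORD on linear axes; points are libraries, horizontal lines group means, and bars mean ± SD (n = 3) for SPINT2, SPINT1 and ST14. SPINT2, SPINT1 and ST14 lie above all 3 control libraries in each of the 6 knockdown libraries, and PRSS8, TMPRSS3 and TMPRSS4 reach their highest value in shSORD replicate 2. The share of all genes that separate in this way was not computed.

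Between the knockdowns none of the 3 genes was called, where 30.7% of all genes tested were. SPINT2 differed by 0.10 (log2, shAKR1B1 over shSORD, 95% interval -0.04 to 0.24, edgeR adjusted p = 0.288). SPINT1 differed by 0.04 (-0.43 to 0.52, edgeR adjusted p = 0.903), with the sign turned without shAKR1B1 replicate 1 (-0.04) or shSORD replicate 3 (-0.16). ST14 differed by -0.23 (-0.80 to 0.34, edgeR adjusted p = 0.581). The intervals of SPINT1 and ST14 are wide, so these data do not show that the knockdowns acted alike on them.

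**Figure D2:**
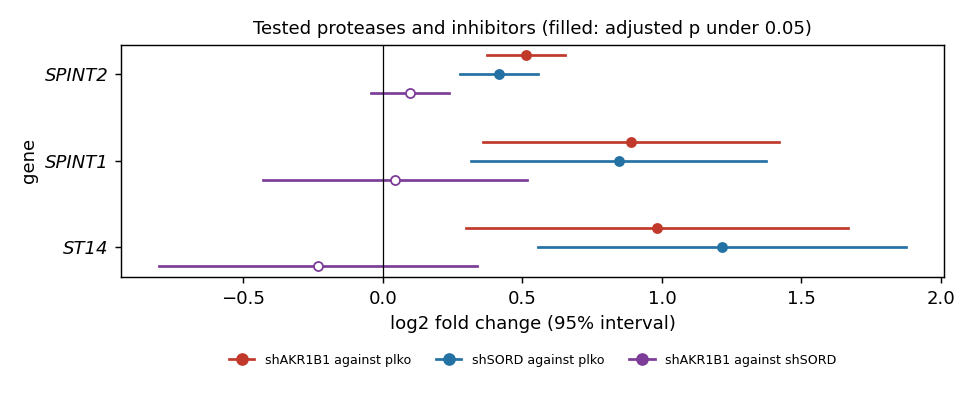
Log2 difference with its 95% interval from edgeR for SPINT2, SPINT1 and ST14 in shAKR1B1 against plko, shSORD against plko, and shAKR1B1 against shSORD. All 6 intervals against plko lie above 0, and all 3 intervals between the knockdowns include 0. ST14 passed the filter only through the knockdowns, and its call in shAKR1B1 against plko was lost under some alternatives.

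PRSS8 encodes prostasin, a protease held by a lipid anchor that acts with matriptase and on the epithelial sodium channel. It had 2, 1 and 3 counts in plko, 0, 4 and 0 in shAKR1B1, and 5, 9 and 4 in shSORD. The shSORD libraries lay above the control libraries. Their lowest count, 4, was also the highest count in shAKR1B1, at 0.100 CPM in shSORD and 0.0987 CPM in shAKR1B1. Fitted with no filter, among 31369 genes, its edgeR adjusted p was 0.174 in shSORD and 0.733 in shAKR1B1.

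TMPRSS4, a transmembrane protease often studied in carcinoma invasion, had 0 counts in all 3 plko libraries, 1, 0 and 0 in shAKR1B1, and 1, 7 and 1 in shSORD. A total of 0 in plko allows up to 0.0265 CPM over the group (3 counts). Fitted with no filter it had an edgeR adjusted p of 0.028 in shSORD, and without shSORD replicate 2, which held 7 of its 9 counts, 0.35.
TMPRSS3, known for its role in hearing, had 4, 3 and 3 counts in plko, 3, 1 and 5 in shAKR1B1, and 2, 11 and 4 in shSORD. The groups overlapped, and its edgeR adjusted p in shSORD with no filter was 0.548. TMPRSS2, which primes the spike proteins of respiratory viruses in airway cells, had 0, 0 and 1 counts in plko, 0, 0 and 1 in shAKR1B1, and 1, 1 and 0 in shSORD. At this depth no difference in TMPRSS2 was detectable.

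The library shSORD replicate 2 held 28 counts of these 4 genes, against 4 to 9 in each of the other 8 libraries. The 7 fibroblast markers summed to 56.8 CPM in the same library, 35.3 and 36.8 CPM in the other shSORD libraries, 15.9 to 17.8 CPM in plko and 9.16 to 10.6 CPM in shAKR1B1. Most of the shSORD sum was COL1A1, at a mean of 36.4 CPM. Of these markers 6 passed the filter, and DCN stayed at 0 to 4 counts in every library. In shSORD 5 were called higher, where 27.5% of all genes tested were. COL1A2, COL3A1, LUM and PDGFRB passed the filter only through shSORD. In shAKR1B1 1 was called higher and 2 lower, against 27.8% and 29.6% of all genes tested. The part of this library or of the fibroblast markers in the counts of the 4 genes was not tested.

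Divided by exon length, the order of the 7 transcripts in plko was SPINT2 at 51.1 CPM per kilobase, SPINT1 at 0.152, ST14 at 0.0426, PRSS8 at 0.0175, TMPRSS3 at 0.0155, TMPRSS2 at 0.00139 and TMPRSS4 at 0. PRSS8 and TMPRSS3 overlapped across libraries, and TMPRSS2 and TMPRSS4 rest on 1 count and none. SPINT2 stood above 94.6% of 13429 tested protein-coding genes on this scale, SPINT1 above 8.46% and ST14 above 2.52%. SPINT2 exceeded SPINT1 per kilobase 292.8 to 391.8 times in plko, 232.2 to 278.3 times in shAKR1B1 and 220.4 to 317.3 times in shSORD. SPINT2 thus made up 99.43% to 99.69% of the counts of the 7 genes in every library, and in this line the set is one of an abundant inhibitor beside scarce protease transcripts. Counts of SPINT1 per count of ST14 were 2.57 to 3.33 in plko, 2.5 to 3.08 in shAKR1B1 and 1.35 to 2.93 in shSORD, overlapping ranges.

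Over the 9 libraries, log2 CPM of SPINT1 and SPINT2 correlated at r = 0.947, ST14 and SPINT2 at 0.803, and ST14 and SPINT1 at 0.756. These points share the 3 group means, so they carry no p. Of genes with a mean of at least 50 counts, 99.7% had a lower r with SPINT1 than SPINT2 had. For ST14 the values stood out less, as 84.83% had a lower r with it than SPINT2 and 81.79% than SPINT1. Among 13220 genes with a mean of at least 50 counts, the patterns most like SPINT2 were GIPR (r = 0.994), EML2 (0.994) and YPEL3 (0.993). Those most like SPINT1 were ATOSB (0.984), DCST2 (0.980) and TOB1-AS1 (0.978), and those most like ST14 were PSG4 (0.990), SGK1 (0.989) and PLAGL1 (0.989).

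Other transmembrane serine proteases of the same type were nearly silent. Of 13, only TMPRSS5 passed the filter, with 8 to 12 counts in plko, 9 to 26 in shAKR1B1 and 13 to 25 in shSORD. Its log2 differences from plko were 0.80 and 0.87, with edgeR adjusted p of 0.0785 and 0.0552. It was called in shAKR1B1 under 2 alternatives, the fit of these 2 groups alone and the fit without shAKR1B1 replicate 1 (edgeR adjusted p = 0.0419 and 0.0304). In shSORD it was called under 4, namely 2 groups alone, total-count scaling, no filter and without shSORD replicate 3 (edgeR adjusted p = 0.0454, 0.0417, 0.0488 and 0.0146). None of the 3 other anchored proteases (PRSS21, PRSS55, TPSG1) passed the filter. TMPRSS9, singled out after its values were seen, had 0, 0 and 2 counts in plko, 1, 3 and 0 in shAKR1B1, and 13, 12 and 9 in shSORD. Its shSORD libraries lay above all others, and with no filter its edgeR adjusted p in shSORD was 2.48e-05.

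Of 6 other inhibitors, 2 were tested, and they moved in opposite directions. SERPINA1, the secreted serpin alpha-1-antitrypsin, rose by 2.70 (log2, SE 0.145) in shAKR1B1 and by 0.63 (SE 0.172) in shSORD (edgeR adjusted p = 1.05e-09 and 0.00597). SERPINE2, protease nexin-1, which inhibits thrombin, urokinase and prostasin, fell by 0.89 (SE 0.061) and 0.79 (SE 0.0607) on the log2 scale (edgeR adjusted p = 1.48e-08 and 6.48e-08).

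The substrates and receptors of these proteases were split. Of 17 genes 15 were tested; 6 were called higher and 5 lower in shAKR1B1, and 5 higher and 7 lower in shSORD, with median log2 differences of 0.04 and -0.47. Of all genes tested, 57.4% and 56.5% were called in either direction in these comparisons. The ligand MST1 (macrophage-stimulating protein), which matriptase and its relatives activate by cleavage, was at 1.36 ± 0.353 CPM in plko, 4.54 ± 0.721 in shAKR1B1 and 4.32 ± 0.582 in shSORD (SD, n = 3). It rose by 1.73 and 1.67 on the log2 scale, and its receptor MST1R (RON) by 0.93 and 0.64 (edgeR adjusted p between 3.66e-07 and 1.98e-05).
HGF, another ligand activated by cleavage, was at 0.398 ± 0.12 CPM in plko, 2.10 ± 0.39 in shAKR1B1 and 0.251 ± 0.109 in shSORD (SD, n = 3). It rose in shAKR1B1 (log2 2.38, edgeR adjusted p = 2.43e-06), and its difference in shSORD was -0.66 (edgeR adjusted p = 0.161). Its receptor MET was lower by -0.65 in shSORD (edgeR adjusted p = 1.75e-07) and by -0.18 in shAKR1B1 (edgeR adjusted p = 0.0127; 0.0546 without plko replicate 3 and 0.0553 without shAKR1B1 replicate 2).

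F2RL1, protease-activated receptor 2, which matriptase can cleave, fell by 0.65 and 0.79 on the log2 scale in shAKR1B1 and shSORD (edgeR adjusted p = 1.64e-07 and 3.25e-08). CDCP1, a surface glycoprotein that matriptase cleaves, fell by 1.69 and 1.44 (edgeR adjusted p = 6.24e-11 and 4.81e-10). EPCAM, an adhesion protein whose cleavage by matriptase HAI-2 restrains, was at 3.06 ± 0.0549 CPM in plko, 10.5 ± 0.904 in shAKR1B1 and 15.6 ± 1.09 in shSORD (SD, n = 3). The range of EPCAM did not overlap between any of the 3 groups. Its partner CLDN7 rose by 1.28 in shSORD (edgeR adjusted p = 0.000261) and by 0.67 in shAKR1B1 (edgeR adjusted p = 0.031, and between 0.0528 and 0.113 without any 1 of 5 of the 6 libraries compared).
PLAU, urokinase, was lower by -0.22 in shAKR1B1 (edgeR adjusted p = 0.00185) and differed by 0.12 in shSORD (edgeR adjusted p = 0.0679), and its receptor PLAUR was not called in either. SCNN1A, the alpha subunit of the epithelial sodium channel, was lower by -0.54 in shSORD (edgeR adjusted p = 0.000241) and by -0.25 in shAKR1B1 (edgeR adjusted p = 0.0412); the latter call was lost under 7 of the alternatives, with adjusted p from 0.0519 to 0.187.

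**Figure D3:**
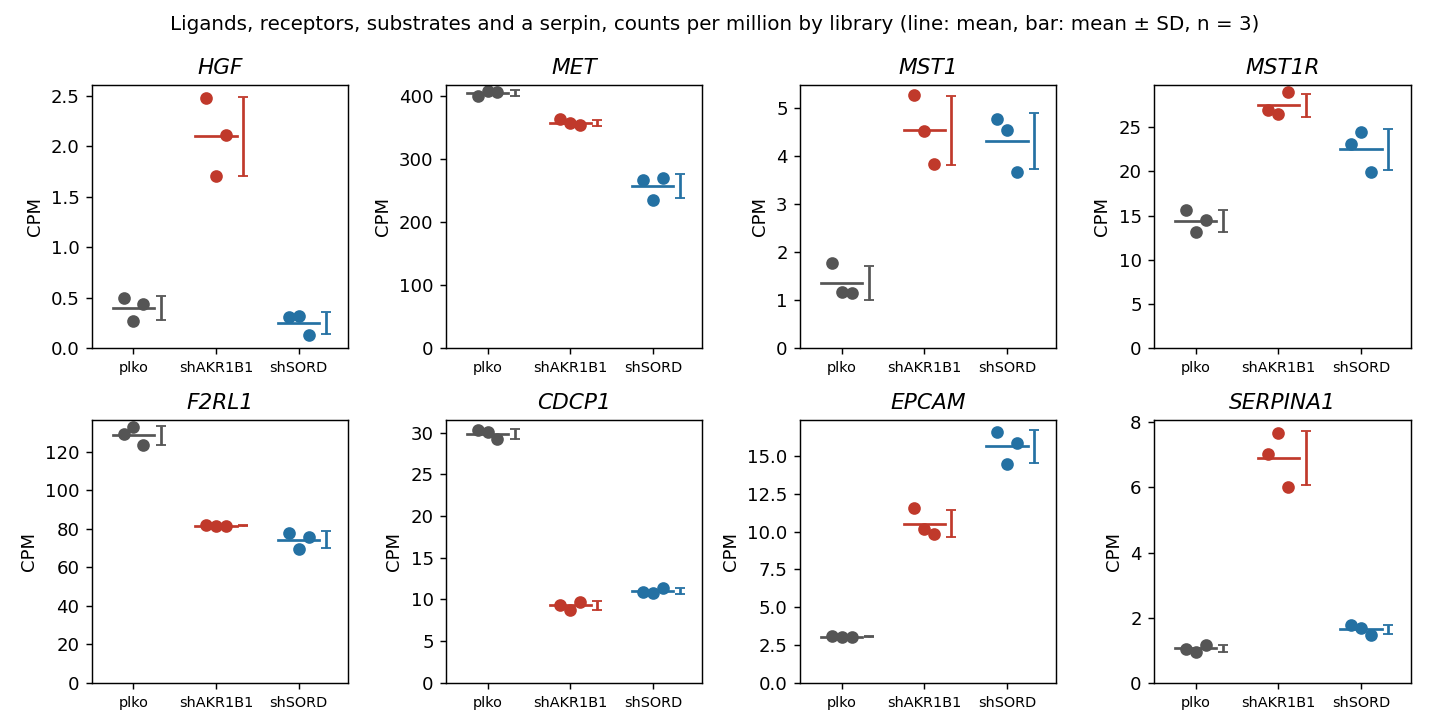
CPM of 8 related genes in each library (points), with group means (lines) and mean ± SD (bars, n = 3), on linear axes; the 8 were picked for display after their values were seen. MST1, MST1R and EPCAM are higher and MET, F2RL1 and CDCP1 lower in both knockdowns, while HGF is high in shAKR1B1 alone.

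Epithelial transcription factors formed the last group. Of 8, 6 were tested; 4 were called higher in shAKR1B1 and 3 in shSORD, none lower, with median log2 differences of 0.71 and 0.35, where 27.8% and 27.5% of all genes tested were called higher and 29.6% and 29.0% lower. ELF3, an ETS factor of epithelia, rose by 0.66 and 0.63 (edgeR adjusted p = 5.72e-07 and 1.05e-06), and KLF5 by 0.97 and 0.51 (4.08e-09 and 3.56e-06). OVOL2, a repressor of mesenchymal genes, went from 2 to 4 counts in plko to 14 to 18 in shAKR1B1 and 11 to 18 in shSORD, and like ST14 it passed the filter only through the knockdowns. Of the Grainyhead-like factors, which regulate epithelial junction and barrier genes, GRHL1 and GRHL3 were not called in either knockdown (edgeR adjusted p from 0.246 to 0.862). GRHL2 did not pass the filter, at 1 to 6 counts per library.

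**Figure D4:**
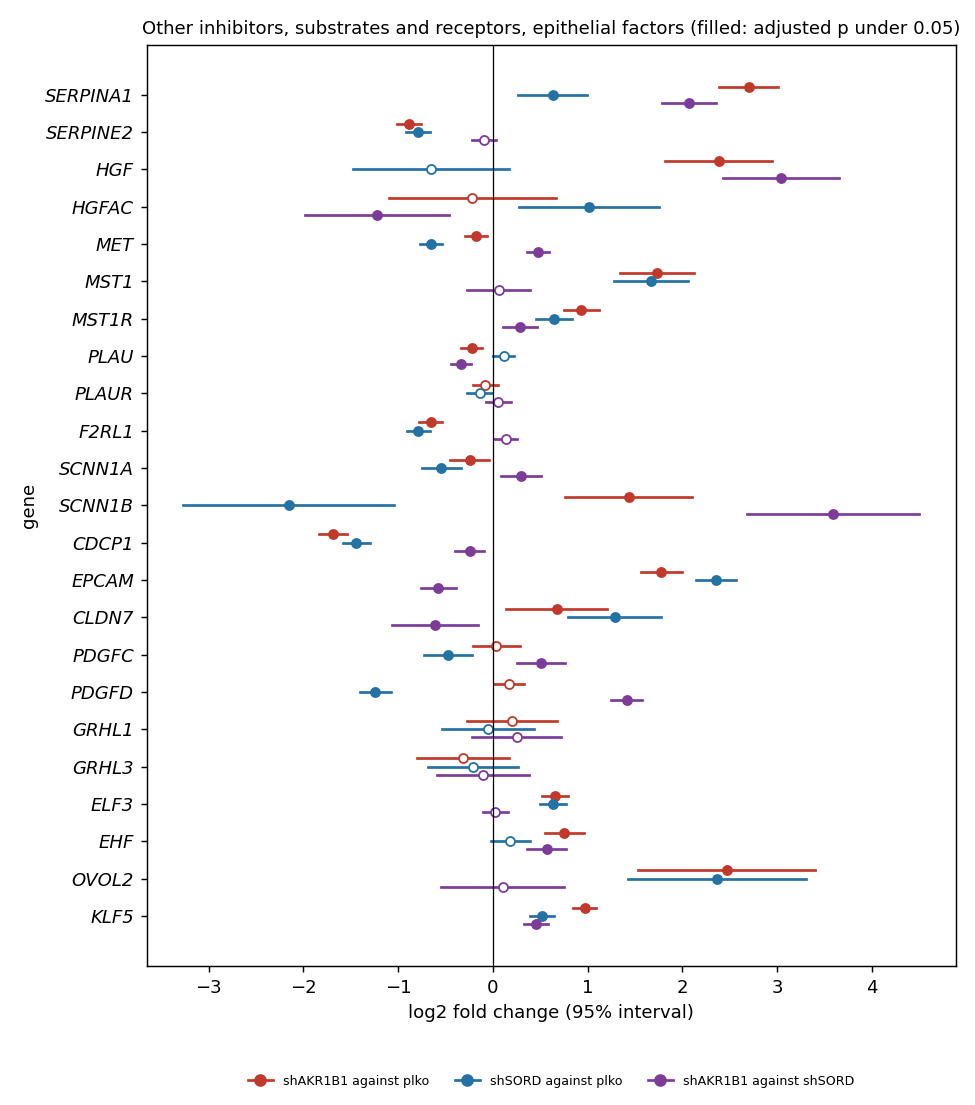
Log2 difference with its 95% interval (edgeR) for the tested other inhibitors, substrates and receptors, and epithelial factors, in shAKR1B1 against plko, shSORD against plko and shAKR1B1 against shSORD; filled points have an adjusted p under 0.05. Substrates and receptors lie on both sides of 0, and SCNN1B is called higher in shAKR1B1 (1.43) and lower in shSORD (-2.16). SCNN1B passed the filter only through shAKR1B1, the group where it is highest.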

How the data were processed

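The authors deposited 1 table of raw counts per gene for 9 A549 libraries (TruSeq stranded mRNA, per the labels' protocols). Cutadapt 1.9.1, STAR 2.5.2b, featureCounts 1.5.1, DESeq2 1.12.3 and GRCh37 are named, per the submitters' processing notes; how each was set is not given in the sources used here. The 7 genes and the related lists were chosen with earlier results of these data known.

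Counts were fitted with edgeR 4.0.16 in R 4.3.3 (TMM scaling, filterByExpr with a minimum of 10 counts, 1 mean per group over all 9 libraries, quasi-likelihood test), which tested 16916 genes; genes with a Benjamini-Hochberg adjusted p under 0.05 were called. The script was tested on simulated data, where false calls were on average somewhat more frequent than the nominal share, which bears on calls close to the threshold. The genes named are the 7, any tested gene of the related lists, and the 3 genes most correlated with each tested one (log2 CPM, prior count 2); exceptions are stated. CPM values use the TMM-scaled size of each library over the tested genes. Exon lengths are from GENCODE release 29. DESeq2 1.42.0 and other filters, scalings, fits and left-out libraries were alternatives. Same-numbered shAKR1B1 and shSORD libraries deviated together from their group means (r = 0.102, 0.193 and 0.144 for numbers 1 to 3), a pairing seen in the data and not in the labels. The planned search of protein sequences was not run, and 1 gene of the planned related lists is not reported here and is left out of their counts.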

Additional observations from a re-analysis of the deposited data

Results flagged for a closer look

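In 15 of the 24 tested genes of the related lists edgeR called a difference between shAKR1B1 and shSORD, against 30.7% of all genes tested, that is, their differences from plko were not of the same size (Benjamini-Hochberg adjusted p, values on the log2 scale as shAKR1B1 over shSORD). The lists were chosen with earlier results of these data known, and the 15 include SCNN1B, which passed the filter only through shAKR1B1. The count of 15 is thus a description. The protease inhibitor SERPINA1 differed by 2.07 (adjusted p = 2.81e-08, edgeR). Of the ligands, HGF differed by 3.04 (1.35e-06), PDGFD by 1.41 (5.07e-09) and PDGFC by 0.51 (0.0048). Of the receptors, MET differed by 0.48 (1.06e-05) and MST1R by 0.29 (0.0171; 0.0787 without shAKR1B1 replicate 3).

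SCNN1B, the beta subunit of the epithelial sodium channel, differed by 3.59 (edgeR adjusted p = 1.28e-05), with 9 to 13 counts in plko, 21 to 48 in shAKR1B1 and 2 to 3 in shSORD. It passed the filter only through shAKR1B1, the group where it was highest, so this difference is a description. SCNN1A differed by 0.30 (0.031; not called under 4 alternatives, with adjusted p from 0.0697 to 0.128). The transcription factors EHF and KLF5 differed by 0.57 (0.000331) and 0.45 (2.76e-05).

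Higher in shSORD than in shAKR1B1 were EPCAM (-0.57, edgeR adjusted p = 0.000101) and PLAU (-0.34, 0.000142). CLDN7 differed by -0.61 (0.0412; not called under 5 alternatives, 0.0684 to 0.198). CDCP1 differed by -0.25 (0.0192; not called under 4 alternatives, 0.0506 to 0.106). HGFAC, the protease that activates HGF, differed by -1.23 (0.0167; 0.0841 without shAKR1B1 replicate 3 and 0.0903 without shSORD replicate 2).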

How the results depend on the processing

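Over the 3 comparisons, 192 of 197 recomputed values of SPINT2, SPINT1, ST14 and the counts of calls kept their direction and their side of the threshold, or for counts stayed within 1.5 times. ST14 in shAKR1B1 against plko lost its call at log2 1.01 with DESeq2, 0.97 with no filter and 0.91 without plko replicate 1. SPINT1 in shAKR1B1 against shSORD, which was not called at 0.04, changed sign to -0.04 without shAKR1B1 replicate 1 and to -0.16 without shSORD replicate 3, again with no call, within a range of -0.16 to 0.17 over the left-out libraries. The cause of these 5 changes was not tested. Leaving out 1 library at a time gave 0.91 to 1.09 for ST14 in shAKR1B1 and 1.121 to 1.319 in shSORD, and 0.79 to 0.98 and 0.73 to 1.07 for SPINT1. With the replicate block 9994, 9817 and 5643 genes were called in shAKR1B1 against plko, shSORD against plko and shAKR1B1 against shSORD; the last was 5650 with the 2 groups alone and the block, a fit chosen after seeing the data. The block changed no call of SPINT2, SPINT1 or ST14. The shSORD libraries varied more among themselves than those of the other groups, while the main fit shares 1 spread. Against plko the main fit called 9716 genes in shAKR1B1 and 9565 in shSORD. Fits of the 2 groups alone called 11094 and 8763. Numbers did not pair plko with either knockdown (r from -0.0285 to 0.0314). The stricter filter (1 CPM in 3 libraries) left ST14 out. PRSS8, TMPRSS2, TMPRSS3 and TMPRSS4 have no value with the filter, and the fit of these with no filter and without shSORD replicate 2 was chosen after seeing the data. Depth limits all 4, at 0 to 11 counts per library.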

Other observations

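Of the genes that did not pass the filter, 3 more of the related lists had an edgeR adjusted p under 0.05 in a knockdown when all 31369 genes with a count were fitted; they were singled out after their values were seen. TMPRSS7, a transmembrane protease of the matriptase subfamily, held 2 counts over the 3 plko libraries, 16 over shAKR1B1 and 10 over shSORD (adjusted p = 0.0204 and 0.15). SERPINA5, the protein C inhibitor, had an adjusted p of 0.0491 in shSORD with a log2 difference of 1.26, and SCNN1G, the gamma subunit of the epithelial sodium channel, had an adjusted p of 0.0444 in shAKR1B1.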
